A study of Mus musculus with 12 samples.

Results

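FRA-1 binding was examined around 34 lysosome genes, of 21887 protein-coding genes on chromosomes 1 to 19, X and Y. The genes were taken from a list by what they encode: 7 lysosomal membrane proteins and channels, 10 acid proteases, 7 glycosidases or lipases, 3 lipid carriers or activators, 3 MiT/TFE transcription factors and 4 subunits of the proton pump. A gene was scored by the FRA-1 peaks inside it or within 20 kb of its ends (RefSeq, GRCm38), and separately by whether the authors' deposited table names it. The rule itself uses no measured value, but the genes were chosen with earlier results of these data known.

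In ChIP-seq, chromatin is precipitated with an antibody and the recovered DNA is sequenced. The antibody used here was against FRA-1, a FOS family protein that forms the AP-1 transcription factor together with a JUN protein. The assay was performed in mouse peritoneal macrophages to locate FRA-1 binding sites at rest and upon stimulation. The design comprised 3 unstimulated samples, 3 samples stimulated for 1 h with lipopolysaccharide (LPS) and 3 samples given apoptotic cells for 1 h. Another 3 samples were inputs, not used here.

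All mice were 8 weeks old and no genotype or deletion is recorded for any group. The sample records describe male or female mice of mixed 129/C57Bl6 background, cells elicited with thioglycollate and lavaged 72 h later, and overnight plating before adherent cells received 1 µg/mL LPS or apoptotic cells (ratio 1:5). The series' design text instead names C57Bl/6 mice, plain lavage and 10 µg/mL LPS. The sample records name the same 3 mice in every condition, whereas the design text implies separate animals, and the tables name no mouse. The identity of the cells could not be checked, since peak tables carry no RNA level.

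Lysosomes degrade material taken up by phagocytosis, endocytosis and autophagy. Their acid hydrolases work at low pH, which the vacuolar proton pump maintains, and membrane proteins such as LAMP1 protect the membrane. The MiT/TFE factors TFEB, TFE3 and MITF bind E-box letters, CACGTG, in promoters of many lysosome genes, where the extended form GTCACGTG is the core of the CLEAR element. AP-1 dimers bind TGANTCA. Macrophages engulf apoptotic cells and digest them in lysosomes.

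The 9 replicates held 20981 to 79474 peaks, with 20981 to 28314 in unstimulated, 39728 to 63010 in LPS and 31501 to 79474 in apoptotic cell replicates. The tables carry no reads, so the sequencing depth is unknown. The smallest peak width was 104 to 116 bp in unstimulated replicate 3, LPS replicates 1 and 3 and apoptotic cell replicate 3, and 158 to 172 bp in the other 5. A peak's score (of a scale not given, 50.01 at the lowest) took 2359 to 5852 distinct values in a replicate, and the commonest one was shared by 2785 to 6563 peaks of a replicate. Equal scores at different places are therefore frequent. Peaks of the 3 replicates of a condition that overlapped were merged into a region, and peaks of all 9 replicates into a site.

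No promoter window of a listed gene held a FRA-1 peak. RefSeq promoter windows, from 250 bases before to 50 after the transcription start, were at hand for 29 of the 34 genes (37 windows), that is, for all but Ctsb, Ctsh, Npc1, Atp6v0d2 and Atp6v1h. In each of the 3 conditions, 0 of these 37 windows overlapped a region. Over all 32851 windows, 0.91% did so without stimulation, 1.95% with LPS and 2.19% with apoptotic cells, so that few or no windows would be counted at these shares. The nearest approach with a peak in at least 2 replicates was at Ctsl, 503 bp upstream of the listed start. From the 5′ end of the RefSeq gene span, the middle of this Ctsl site was 250 bp away and its edge 194 bp. A window of 250 bases before that end would reach it, so the 0 holds for the listed starts only.

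The letters of both factors are nevertheless present in these windows, counted on either strand. TGANTCA stood in 7 of 37 windows (18.9%), against 7.81% of all windows. The genes were Atp6v0a1, Cd68, Glb1, Gpnmb, Neu1, Psap and Tfe3. GTCACGTG stood in 7 of 37 (18.9%), against 2.25% of all windows, in Ctsa, Ctsd, Gla, Glb1, Lamp1, Lgmn and Mcoln1. CACGTG, which is contained in GTCACGTG, stood in 9 (24.3%, against 7.15%), with Atp6v1a and Ctsl in addition. The CRE letters TGACGTCA stood in 2 windows (5.41%, against 1.79%), those of Gusb and Mitf. Among the other lysosome genes described at the end, TGANTCA stood in 1 of 73 windows (1.37%) and TGACGTCA in 0 of 73, both below the share of all windows. GTCACGTG stood in 13 of 73 (17.8%) and CACGTG in 17 (23.3%). A match describes the letters only and is no bound site.

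Stretches before the start are shown for 4 genes with the AP-1 letters and for 4 with the CLEAR core alone (RefSeq, GRCm38), because they show how these letters lie in promoters that held no FRA-1 peak. Each is written 5′ to 3′ on the gene's own strand, and capitals mark the matched letters, which in Glb1 are both motifs sharing 4 bases.
Glb1, chr9:114401000-114401060, plus strand: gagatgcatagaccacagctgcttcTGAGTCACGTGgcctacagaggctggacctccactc
Psap, chr10:60277585-60277627, plus strand: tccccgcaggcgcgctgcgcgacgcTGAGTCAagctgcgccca
Neu1, chr17:34931080-34931136, plus strand: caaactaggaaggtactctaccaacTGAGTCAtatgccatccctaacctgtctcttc
Cd68, chr11:69666171-69666219, minus strand: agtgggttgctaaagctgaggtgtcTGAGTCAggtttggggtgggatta
Lgmn, chr12:102439111-102439168, minus strand: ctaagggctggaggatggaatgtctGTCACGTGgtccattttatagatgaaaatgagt
Lamp1, chr8:13159108-13159160, plus strand: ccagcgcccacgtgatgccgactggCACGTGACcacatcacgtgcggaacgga
Ctsd, chr7:142387893-142387950, minus strand: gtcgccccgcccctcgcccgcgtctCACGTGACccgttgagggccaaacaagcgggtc
Mcoln1, chr8:3500421-3500478, plus strand: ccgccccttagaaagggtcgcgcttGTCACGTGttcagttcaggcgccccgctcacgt
The last letter of the match lay 42 bases before the start in Glb1, 11 in Psap, 141 in Neu1, 17 in Cd68, 43 in Lgmn, 20 in Lamp1, 90 in Ctsd and 65 in Mcoln1.

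Nearly every listed gene had FRA-1 peaks somewhere within 20 kb, and so did most genes of their length. A region lay within 20 kb of 28 of the 34 genes without stimulation (82.4%), of 32 with LPS (94.1%) and of 33 with apoptotic cells (97.1%). Among all protein-coding genes the shares were 78.2%, 92.2% and 93.1%. Genes whose length was within 50% of a listed gene, 1730 to 6436 for each, gave 79.3%, 93.8% and 94.6%. All 3 conditions had a region at 27 listed genes (79.4%), against 70.8% of all genes. The listed genes were thus near the background. Their median length was 21747 bp, against 17169 bp over all genes.

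Regions that recurred between replicates were counted at more of the listed genes than the background shares give, a difference that was not tested. Such a region, with peaks from 2 or 3 replicates, lay near 7 genes without stimulation (20.6%), 21 with LPS (61.8%) and 11 with apoptotic cells (32.4%). The shares were 13.6%, 48.7% and 24.4% of all genes, and 12.7%, 49.0% and 23.4% at similar length. At these last shares, 4.32, 16.7 and 7.97 of 34 genes would be counted. With each replicate reduced to its 20981 highest-scoring peaks, the counts were 7, 12 and 5. Without LPS replicate 1 or without LPS replicate 3 the LPS count was 7, and without LPS replicate 2 it was 21. Without unstimulated replicate 3 the unstimulated count was 4, and without apoptotic cell replicate 1 or 3 the apoptotic cell count was 7. Shares over all genes are not given for these reduced sets, so these counts cannot be set against the shares above. Regions with a peak in all 3 replicates lay near 4, 7 and 6 genes (11.8%, 20.6% and 17.6%), against 6.1%, 14.7% and 14.3% of all genes.

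Within each replicate, 14 to 23 listed genes had a peak without stimulation (18.0 ± 4.58, mean ± SD, n = 3), 20 to 29 with LPS (25.3 ± 4.73, n = 3) and 25 to 29 with apoptotic cells (26.7 ± 2.08, n = 3). The apoptotic cell replicates lay above all unstimulated replicates and the LPS replicates overlapped with them. Among replicates of narrow smallest width, unstimulated replicate 3 had 23 genes, the LPS replicates 27 and 29, and apoptotic cell replicate 3 had 29. Among the others, 17 and 14 genes in unstimulated replicates compared with 20 with LPS and 26 and 25 with apoptotic cells. When each replicate was reduced to its 20981 highest-scoring peaks, the means were 16.7, 17.0 and 18.3 genes. With all peaks kept, genes of similar length also had higher shares with both stimuli. Their shares were 39.9 to 51.9% per unstimulated replicate, 60.7 to 81.4% with LPS and 54.3 to 84.5% with apoptotic cells. Unlike the listed genes, they did not overlap between LPS and unstimulated replicates. The listed share was 67.6% in unstimulated replicate 3, against 51.9%, and 58.8% in LPS replicate 2, against 60.7%.

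**Figure D1:**
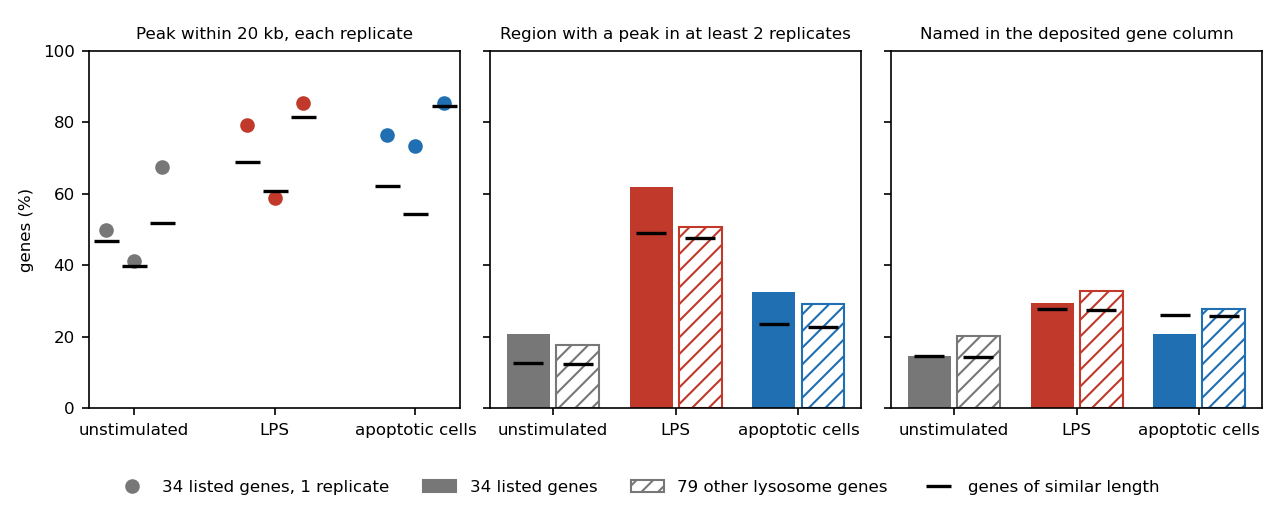
Percent of genes with FRA-1 peaks by condition: left, genes with a peak within 20 kb in each replicate (points, 34 listed genes); middle, genes near a region seen in at least 2 replicates; right, genes named in the deposited gene column (bars, 34 listed and 79 other lysosome genes). Black dashes show genes of similar length. The listed genes stand at 20.6%, 61.8% and 32.4% in the middle panel, with the dashes at 12.7%, 49.0% and 23.4%.

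The listed genes differed widely among themselves. Regions per gene ranged from 0 to 11 without stimulation, from 0 to 12 with LPS and from 0 to 13 with apoptotic cells, with medians of 2, 5 and 5. At the upper end stood Mitf, by far the longest of the genes (214359 bp), and Atp6v1h. In all, 353 different sites lay within 20 kb of a listed gene, and 307 of them (87.0%) had a peak in 1 of the 9 replicates, against 89.7% of all sites. Another 11 sites (3.12%, against 1.67%) had a peak in 6 to 9 replicates. They lay at 9 genes, 8 inside and 3 outside the gene body, and for those with a listed start between 4005 and 33875 bp away from it. Measured from the 5′ end of the gene span instead, the site at Cd63 was 3259 bp away. The 85 peaks at these sites ranked from the 12.6th to the 99.2nd percentile of their replicate's scores, with a median of 81.9. A site with a peak in all 9 replicates was found at 2 genes, Atp6v1h and Scarb2, or 5.88%, against 4.92% of all genes. With at least 8 replicates there were 4 genes, or 11.8%, against 8.2%.

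**Figure D2:**
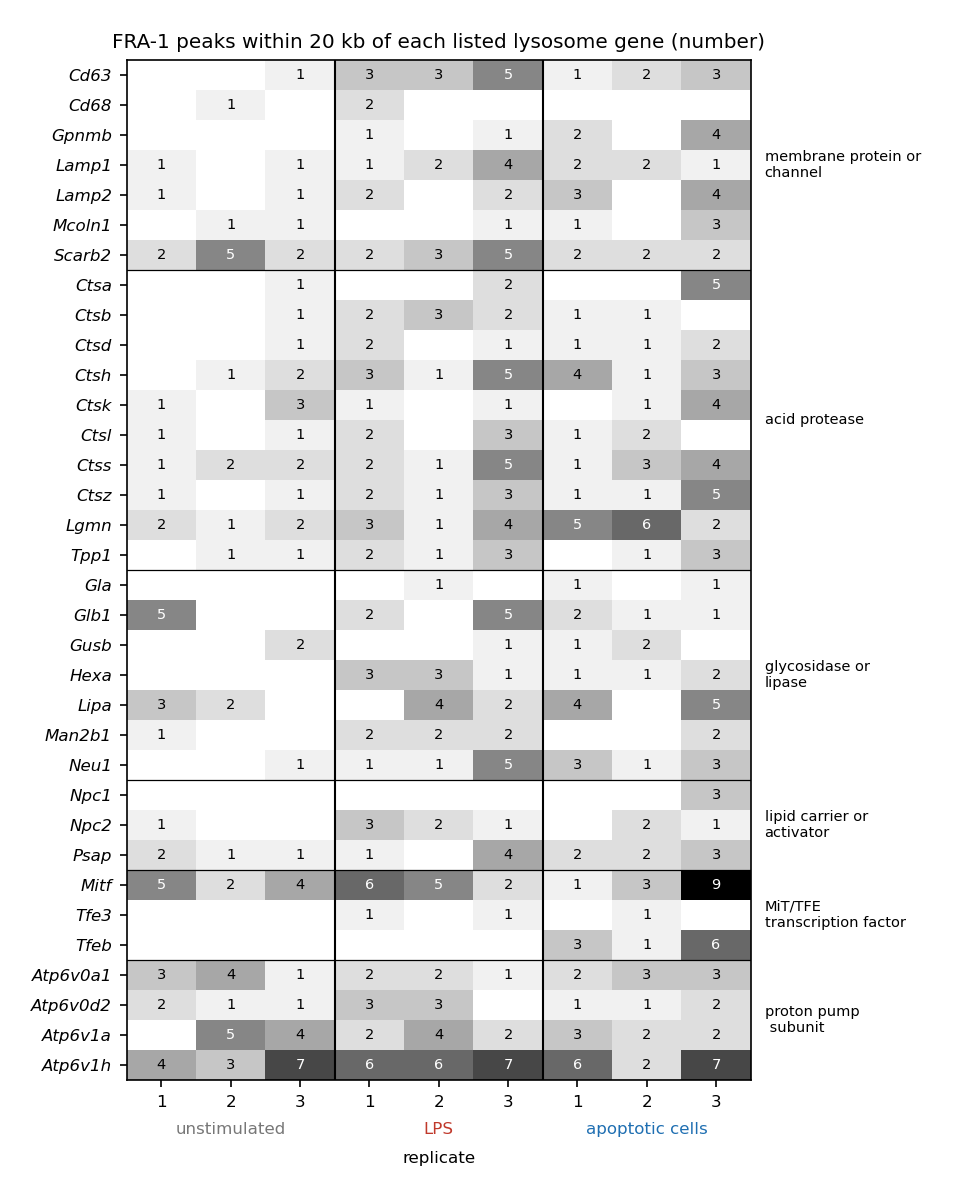
Number of FRA-1 peaks within 20 kb of each of the 34 listed genes (rows, by role) in each of the 9 replicates (columns, by condition). Darker cells hold more peaks and blank cells hold 0. Atp6v1h, Lgmn, Mitf, Scarb2, Ctss and Atp6v0a1 have a peak in every replicate. These genes are 29620 to 214359 bp long, against a listed median of 21747 bp, and the share of all genes with such peaks was not counted. Tfeb and Npc1 have peaks with apoptotic cells alone, those of Npc1 in replicate 3 only.

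The proton pump acidifies the lysosome. All 4 of its listed genes had a region in each condition, as did all 10 acid proteases. The shares of all genes were 78.2% without stimulation, 92.2% with LPS and 93.1% with apoptotic cells. The pump genes are long, and genes of their length gave 85.5 to 92.4%, 96.5 to 98.5% and 96.8 to 98.9% in the same order. For the proteases, genes of similar length gave 69.7 to 85.5%, 89.0 to 96.5% and 90.7 to 96.8%. All 4 and all 10 are therefore near the background. Atp6v1h encodes a subunit of the cytosolic V1 part and had 2 sites with a peak in all 9 replicates, both inside the gene. At chr1:5129852-5130053 the scores were 270.26, 300.6 and 424.48 without stimulation, 289.31, 269.51 and 302.14 with LPS, and 374.4, 381.44 and 249.73 with apoptotic cells. These peaks ranked between the 81.4th and the 99.2nd percentile of their replicates, and the groups overlapped. At chr1:5105220-5105395 the scores were 125.13, 135.11 and 294.12 without stimulation, 203.73, 146.84 and 369.13 with LPS, and 188.13, 118.01 and 201.27 with apoptotic cells. Here too the groups overlapped. Another 3 sites in the gene, from 5139282, 5148872 and 5162742 on, were seen in LPS replicates 1 and 3 with scores of 131.8 to 267.73 and in unstimulated replicate 3 with 103.67 to 107.3. With apoptotic cells, the first of these had 124.69 in replicate 1 and the last had 146.98 in replicate 3.

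Atp6v1a, the catalytic subunit of V1, had a site at chr16:44135118-44135391, 4005 bp downstream of the start, with a peak in 8 of 9 replicates. Its scores were 143.2 and 279.28 in unstimulated replicates 2 and 3, 210.93, 118.79 and 304.35 with LPS, and 200.23, 126.05 and 171.01 with apoptotic cells. Only unstimulated replicate 1 lacked it, and the groups overlapped. A further site at chr16:44106154-44106363 had scores of 107.29 and 86.43 in unstimulated replicates 2 and 3, 178.77 and 171.56 in LPS replicates 1 and 3 and 129.52 in apoptotic cell replicate 1. Atp6v0a1 and Atp6v0d2, the listed genes of the membrane-embedded V0 part, were less regular. This does not extend to all V0 genes, since Atp6v0a4, outside the list, had a site in all 9 replicates. Atp6v0a1 had a peak in every replicate, but at changing places, and the only site it repeated within a condition was chr11:101026044-101026334, with 117.04 and 97.29 in apoptotic cell replicates 1 and 3. At chr11:101017493-101017756 it had 127.75 in LPS replicate 1 and 82.45 in apoptotic cell replicate 3. Atp6v0d2 had a peak in 8 of 9 replicates, and its 4, 6 and 4 regions without stimulation, with LPS and with apoptotic cells were each seen in 1 replicate. Its highest scores were 152.28, 181.84 and 107.3 without stimulation, 131.8 and 172.74 in LPS replicates 1 and 2, and 147.03, 69.72 and 114.94 with apoptotic cells.

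Among the acid proteases, Lgmn stood out. It encodes legumain, which cleaves after asparagine and processes other lysosomal proteases. Inside the gene, 2 neighbouring sites each had a peak in 8 of 9 replicates, at chr12:102405068-102405366 and chr12:102406013-102406190, 33875 and 32991 bp downstream of the nearest listed start. At the former the scores were 140.69, 196.37 and 317.27 without stimulation, 361.0 and 237.62 in LPS replicates 1 and 3, and 254.79, 262.27 and 282.93 with apoptotic cells. The groups overlapped, since unstimulated replicate 3 was above all apoptotic cell replicates and LPS replicate 2 had no peak. At the latter the scores were 99.78 and 150.97 in unstimulated replicates 1 and 3, 337.71, 207.88 and 470.12 with LPS, and 211.84, 218.24 and 223.11 with apoptotic cells. Each stimulated replicate, with LPS or apoptotic cells, scored higher than all unstimulated ones. A two-sided exact permutation test with a missing peak as 0 gave p = 0.1 for both stimuli. With 3 against 3 replicates no smaller p is possible, so that no gene or site could pass 0.05 here.

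This order is not rare. Of the 5023 sites with a peak in 6 to 9 replicates in the whole series, every LPS score was above every unstimulated score at 6.95%, and every apoptotic cell score at 7.72%. Of the 11 sites near the listed genes, 1 showed each of these orders, the Lgmn site. Lgmn had a further site at chr12:102391247-102391460, with 189.7 in LPS replicate 3 and 94.43 in apoptotic cell replicate 2.

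Ctsz encodes the carboxypeptidase cathepsin Z. Its site at chr2:174429868-174430126, 9042 bp downstream of the start, was seen in 7 replicates, with scores of 157.17 and 215.78 in unstimulated replicates 1 and 3, 112.61, 105.47 and 203.17 with LPS, and 108.07 and 152.26 in apoptotic cell replicates 1 and 3. The groups overlapped. Nearer to the start, chr2:174436583-174437021 had 136.64 and 134.65 in LPS replicates 1 and 3 and 74.15 in apoptotic cell replicate 3.

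Ctsh encodes the aminopeptidase cathepsin H. Beside the gene, 6256 bp from its end, chr9:90047837-90048011 had 150.71 and 308.6 in unstimulated replicates 2 and 3, 397.76 and 351.95 in LPS replicates 1 and 3, and 169.54, 133.53 and 195.72 with apoptotic cells. It was thus present in all conditions, with unstimulated replicate 1 and LPS replicate 2 missing. On the other side, chr9:90082671-90082839 had 196.7 in unstimulated replicate 3, 178.77 and 344.84 in LPS replicates 1 and 3 and 129.52 in apoptotic cell replicate 1. Inside the gene, chr9:90064982-90065307 had 70.96 in LPS replicate 1 and 146.98 in apoptotic cell replicate 3.

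Further proteases repeated a region within LPS but not within the other conditions. Ctsd, encoding the aspartic protease cathepsin D, had chr7:142399399-142399559, 11652 bp upstream, with 138.42 in unstimulated replicate 3, 124.13 and 274.95 in LPS replicates 1 and 3 and 121.27 in apoptotic cell replicate 2. Ctsl, the endopeptidase cathepsin L, had chr13:64370966-64371080 with 159.0 and 231.86 in LPS replicates 1 and 3 and in no other replicate. Ctsk and Ctss, encoding cathepsins K and S, are neighbours 17399 bp apart and share chr3:95511672-95511872, with 76.56 in unstimulated replicate 3, 92.28 and 222.52 in LPS replicates 1 and 3 and 98.89 in apoptotic cell replicate 3. This site counts for both genes. Inside Ctss, chr3:95535801-95536020 had 134.49 and 339.18 in LPS replicates 1 and 3 and 74.96 in apoptotic cell replicate 2.

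Tpp1, a tripeptidyl peptidase, had 2 such sites downstream of the gene, both inside Ilk. At chr7:105737387-105737506 the scores were 150.97 in unstimulated replicate 3 and 244.98 and 406.68 in LPS replicates 1 and 3. At chr7:105738559-105738670 they were 96.58 and 226.93 in the same LPS replicates. Ctsa, the protective protein of the sialidase and the beta-galactosidase, had peaks in replicate 3 of each condition alone, with highest scores of 123.78, 265.27 and 242.95 in the order unstimulated, LPS and apoptotic cells, at different places. Ctsb, cathepsin B, had highest scores of 150.97 in unstimulated replicate 3, 164.86, 187.03 and 102.8 with LPS and 109.88 and 154.25 in apoptotic cell replicates 1 and 2, and none of its regions recurred.

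Scarb2 led the membrane proteins. It encodes LIMP-2, an abundant protein of the lysosomal membrane. Its site at chr5:92513454-92513747, 7943 bp upstream of the start, had a peak in all 9 replicates. The scores were 87.96, 169.65 and 173.13 without stimulation, 115.24, 105.47 and 313.69 with LPS, and 108.07, 148.26 and 97.85 with apoptotic cells, with overlapping groups. Inside the gene, chr5:92501712-92501939 had 114.63 and 136.35 in LPS replicates 1 and 3 and 91.25 in apoptotic cell replicate 1.

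Cd63 encodes a tetraspanin of late endosomes and lysosomes. At chr10:128899395-128899587 the scores were 128.85 in unstimulated replicate 3, 337.71, 126.89 and 435.71 with LPS, and 129.52 and 124.1 in apoptotic cell replicates 1 and 3. LPS replicates 1 and 3 stood apart here, while LPS replicate 2 was below unstimulated replicate 3. The site lies inside the RefSeq gene span, 9854 bp upstream of the listed start. At chr10:128905206-128905454 there were 136.64 and 226.93 in LPS replicates 1 and 3 and 113.81 in apoptotic cell replicate 2. Upstream of the span, chr10:128877889-128878050 had 199.74 in LPS replicate 3 and 87.78 in apoptotic cell replicate 2.

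The LAMP proteins are the most abundant proteins of the lysosomal membrane. Lamp1 had chr8:13152173-13152356, 6897 bp upstream, with 196.7 in unstimulated replicate 3, 178.77 and 513.21 in LPS replicates 1 and 3 and 169.85 in apoptotic cell replicate 1. The 513.21 was the highest score near any listed gene. Downstream, chr8:13179431-13179960 had 148.45 in unstimulated replicate 1 and 262.7 in apoptotic cell replicate 2. Lamp2 had chrX:38452795-38452963 with 190.63 in unstimulated replicate 3, 215.27 and 255.01 in LPS replicates 1 and 3 and 124.69 in apoptotic cell replicate 1. At chrX:38455436-38455601, 942 bp downstream of its start, it had 136.64 and 136.35 in LPS replicates 1 and 3 and 91.25 in apoptotic cell replicate 1.

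The remaining membrane genes showed little. Mcoln1, encoding the calcium channel TRPML1, had a single shared site at chr8:3490855-3491069, with 150.71 in unstimulated replicate 2 and 136.05 in LPS replicate 3. Gpnmb, a glycoprotein of macrophages with high lysosomal load, had no peak without stimulation, and its highest scores were 80.46 and 214.4 in LPS replicates 1 and 3 and 108.21 and 144.3 in apoptotic cell replicates 1 and 3. Cd68, a macrophage marker and the shortest listed gene (1958 bp), had 62.03 in unstimulated replicate 2, 96.58 in LPS replicate 1 and no peak with apoptotic cells.

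Glycosidases and the acid lipase remove sugars and lipids. Of the 7 genes, 5 had a region without stimulation, against 78.2% of all genes. All 7 had one with LPS and with apoptotic cells, against 92.2% and 93.1%. A region seen in at least 2 unstimulated replicates lay near 0 of the 7, where the share of all genes was 13.6%. Among so few genes a count of 0 is near that share. Among the other lysosome genes, 7 of 29 glycosidases or lipases had one, and the difference was not tested. Neu1, the lysosomal sialidase, had the firmest site, 18392 bp upstream of its start and inside Ehmt2, at chr17:34912776-34912946. Its scores were 244.1 in unstimulated replicate 3, 267.73, 126.89 and 406.68 with LPS, and 169.85, 175.18 and 146.98 with apoptotic cells. The site was thus seen in 6 of 6 stimulated and 1 of 3 unstimulated replicates, and unstimulated replicate 3 exceeded all apoptotic cell replicates.

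Glb1, beta-galactosidase, had chr9:114407582-114407697 with 172.71 and 293.13 and chr9:114422025-114422194 with 222.56 and 324.62 in LPS replicates 1 and 3, the latter also with 129.52 in apoptotic cell replicate 1. The former also lies inside Tmppe. Without stimulation Glb1 had 5 peaks at other places, all in replicate 1, with a highest score of 275.26. Its highest scores with apoptotic cells were 169.85, 113.24 and 215.9. Hexa, a hexosaminidase subunit, had chr9:59566443-59566563 just downstream of the gene, with 96.58 and 427.66 in LPS replicates 1 and 3. Lipa, the acid lipase, was alone in the group in repeating regions with apoptotic cells but not with LPS. In apoptotic cell replicates 1 and 3, chr19:34477874-34478171 had 110.09 and 106.47 and chr19:34503130-34503460 had 70.06 and 100.65. Lipa also had peaks elsewhere in the other conditions. Their highest scores were 243.26 and 163.54 in unstimulated replicates 1 and 2 and 160.5 and 162.47 in LPS replicates 2 and 3. Gla, Gusb and Man2b1 had scattered peaks with highest scores of 169.85, 171.56 and 178.77.

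Psap encodes the precursor of the saposins, which help hydrolases reach lipids, and its main site scored lower with apoptotic cells than without stimulation. At chr10:60297582-60297800, near the 3′ end of the gene, the scores were 172.99, 185.51 and 142.05 without stimulation, 230.48 and 360.31 in LPS replicates 1 and 3, and 84.61 and 86.46 in apoptotic cell replicates 1 and 2. Every unstimulated replicate was above every apoptotic cell replicate (two-sided exact permutation p = 0.1), an order found at 1 of the 11 sites and at 1.33% of all 5023. Next to it, chr10:60296819-60296990 had 304.61 in LPS replicate 3 and 129.52 in apoptotic cell replicate 1. Inside the gene, chr10:60286739-60286982 had 106.05 and 171.06 in apoptotic cell replicates 2 and 3, and chr10:60279694-60280140 had 107.98, 143.22 and 107.78 in unstimulated replicate 1, LPS replicate 3 and apoptotic cell replicate 3.

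Npc1 and Npc2 export cholesterol from the lysosome. Npc2 had a low-scoring site 35032 bp downstream of its start, chr12:84737837-84738323, with 54.65 and 62.17 in LPS replicates 1 and 3. Npc1 had 0 peaks in 8 of 9 replicates and 3 in apoptotic cell replicate 3, up to a score of 165.47.

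**Figure D3:**
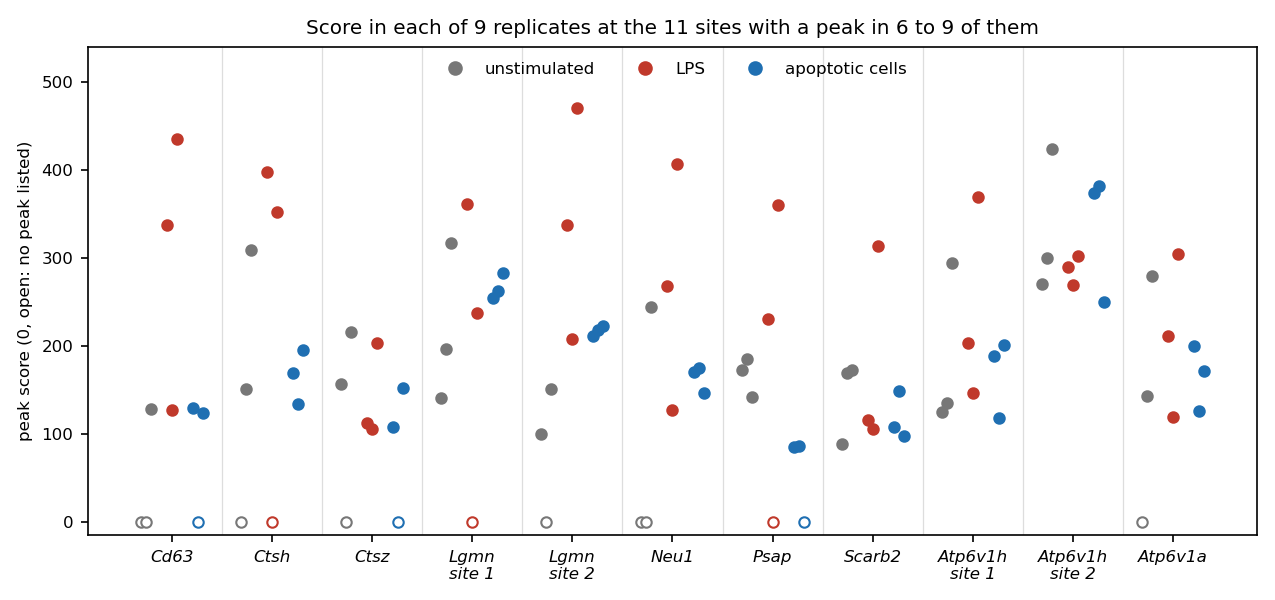
Peak score in each of the 9 replicates (vertical axis) at the 11 sites with a peak in 6 to 9 replicates, by gene. Open circles at 0 are replicates with no peak listed. At the second Lgmn site the stimulated replicates (207.88 to 470.12) lie above the unstimulated ones (up to 150.97), and at Psap the apoptotic cell replicates (up to 86.46) lie below them (142.05 to 185.51).

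The MiT/TFE factors differed from each other. Tfeb had 0 regions without stimulation and 0 with LPS, but 10 with apoptotic cells, spread from 18626 bp upstream of the gene into its body. They comprised 3 peaks in replicate 1, 1 in replicate 2 and 6 in replicate 3, with highest scores of 169.85, 133.78 and 184.35. Each region was seen in 1 replicate, so no position recurred. A peak in all 3 apoptotic cell replicates and in none of the other 6 was found at 1 of 34 listed genes (Tfeb), against 0.274% of all genes and 0.207% at similar length. Apoptotic cell replicate 3, with the most peaks of all, held 6 of these 10. A region with apoptotic cells and none in the other conditions was found at 2 listed genes (Tfeb and Npc1), or 5.88%, against 2.35%.

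Tfe3 had chrX:7780657-7780766 with 136.64 and 284.82 in LPS replicates 1 and 3, and in apoptotic cell replicate 2 a peak of 240.31 elsewhere in the gene. Mitf had peaks in every replicate, with 11, 12 and 13 regions in the 3 conditions, of which 1 had a peak in 2 replicates, chr6:97880471-97880582, with 96.58 and 304.61 in LPS replicates 1 and 3. Its highest score anywhere within 20 kb was 136.08, 135.11 and 150.97 without stimulation, 252.11, 229.08 and 304.61 with LPS and 80.21, 173.24 and 217.74 with apoptotic cells. The LPS values were above both other groups, without overlap, but came from different places in the gene.

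**Figure D4:**
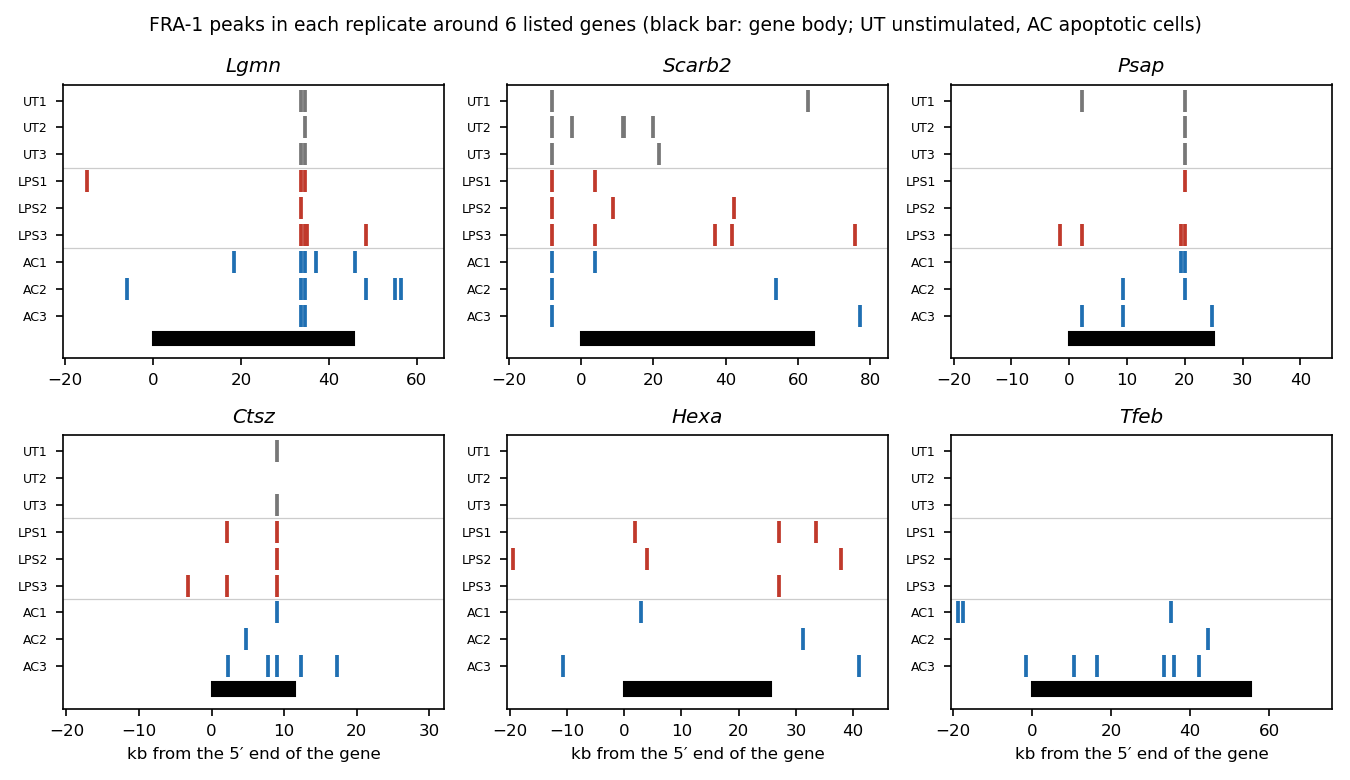
FRA-1 peaks (ticks) in each replicate around 6 listed genes, in kb from the 5′ end of the gene, with the gene body as a black bar. Ticks at Lgmn, Scarb2, Psap and Ctsz align across conditions. At Hexa they align in LPS replicates 1 and 3 at 1 position, and at Tfeb no position recurs.

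Taking the highest score within 20 kb per gene, the groups overlapped at most genes. Against unstimulated replicates, every LPS replicate was higher at 2 of 34 genes, Hexa and Mitf (5.88%), against 10.9% of all genes, and lower at 0, against 0.461%. Every apoptotic cell replicate was higher at 2 genes, Hexa and Tfeb, against 6.43%, and lower at 0, against 1.07%. Both comparisons share the unstimulated replicates. Hexa had no unstimulated peak, 102.53, 166.55 and 427.66 with LPS and 139.46, 85.08 and 102.53 with apoptotic cells. These Hexa values came from different places, and no apoptotic cell region of the gene recurred between replicates. A peak in all 3 LPS and no unstimulated replicates was found at Hexa alone (2.94%, against 3.88% of all genes), and in all 3 apoptotic cell and no unstimulated replicates at Hexa and Tfeb (5.88%, against 3.01%). Between the stimuli, every LPS replicate was above every apoptotic cell replicate at 3 genes, Mitf, Atp6v1a and Man2b1 (8.82%, against 7.78%), and below at 2, Tfeb and Atp6v0a1 (5.88%, against 1.6%). The values of Atp6v0a1 came from different places, as did the 228.65 of LPS replicate 2 at Atp6v1a. No region of Man2b1 had peaks in at least 2 LPS replicates.

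Sites with LPS and not without stimulation were frequent but rested on a pair of replicates. Sites seen in 2 or 3 LPS and 0 unstimulated replicates lay near 12 listed genes (35.3%), against 34% of all genes. These were Lamp2, Cd63, Ctsl, Ctss, Ctsz, Glb1, Hexa, Npc2, Scarb2, Tfe3, Mitf and Tpp1. All 13 such sites had their peaks in LPS replicates 1 and 3, as did 11283 of the 12627 such sites in the series. The scores ranged from 54.65 to 427.66, and replicate 3 was the higher at 11 of 13. Without LPS replicate 1, or without LPS replicate 3, 0 genes remained in this count, and without unstimulated replicate 3 it was 18. These are the 2 LPS replicates of narrow smallest width, and the part of this in the count was not tested. No listed gene had a site in all 3 LPS and no unstimulated replicates, against 2.58% of all genes, and none had one in 2 or 3 unstimulated and no LPS replicates, against 0.891%.

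With apoptotic cells, a site in at least 2 replicates and in no unstimulated replicate lay near 3 genes, Lipa, Psap and Atp6v0a1 (8.82%), against 8.12% of all genes. Without apoptotic cell replicate 3 this count was 0, without replicate 1 it was 1, without replicate 2 it was 2 and without unstimulated replicate 3 it was 5.

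A region lay inside the gene body of 19 listed genes without stimulation (55.9%), 25 with LPS (73.5%) and 28 with apoptotic cells (82.4%). The shares were 43.0%, 55.7% and 57.3% of all genes, and 44.9%, 61.9% and 63.6% at similar length. The difference was not tested. For the 79 other lysosome genes described below the shares were 49.4%, 64.6% and 62.0%, against 41.8%, 58.8% and 60.4% at similar length. Of the regions themselves, 57 of 91, 81 of 148 and 82 of 169 were inside. Another protein-coding gene lay within 20 kb of 30 of the 34 genes, up to 7 near Cd68, so that a peak counted for a listed gene may lie nearer to another.

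The authors' deposited gene column names far fewer. It lists 5 of the genes without stimulation (Ctsk, Psap, Scarb2, Mitf and Atp6v0a1), or 14.7%, against 14.1% of all genes. With LPS it lists 10 (Cd63, Ctsl, Ctsz, Lipa, Neu1, Npc2, Psap, Atp6v1h, Atp6v0a1 and Man2b1), or 29.4%, against 26.3%. With apoptotic cells it lists 7 (Cd63, Ctsd, Ctss, Gla, Psap, Tfeb and Atp6v0a1), or 20.6%, against 25.3%. Psap and Atp6v0a1 are named in all 3. Lgmn is named in none, although its 2 sites were seen in 8 replicates each. Without unstimulated replicate 1 or 2 the first count was 2 or 3, and without apoptotic cell replicate 3 the last was 3. When only rows with a peak in at least 2 replicates were counted, the numbers were 0, 1 and 0.

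The rest of the pathway was described by 79 other lysosome genes. A region lay near 67 of them without stimulation (84.8%), 75 with LPS (94.9%) and 75 with apoptotic cells (94.9%), against 78.1%, 93.2% and 94.0% of genes of similar length. A region in at least 2 replicates lay near 14 (17.7%), 40 (50.6%) and 23 (29.1%), against 12.2%, 47.7% and 22.6%. These shares too were above those of genes of similar length, and this was not tested. A site in all 9 replicates was found at 5 of the 79 (6.33%), against 4.92% of all genes and 4.26% at similar length.

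M6pr, a mannose 6-phosphate receptor that sorts hydrolases, had a site with a peak in all 9 replicates, with scores of 140.93 to 419.79 without stimulation, 166.55 to 427.54 with LPS and 175.18 to 304.47 with apoptotic cells. Atp6v0a4, a V0 subunit of the proton pump, had 107.29 to 368.26, 126.89 to 409.93 and 255.22 to 324.95 in the same order, also in all 9 replicates. Pla2g15, a lysosomal phospholipase, likewise had 150.97 to 244.07, 166.55 to 406.68 and 133.78 to 345.44. The groups overlapped at each of these sites. The Atp6v0a4 site lay inside its gene, the Pla2g15 site 3264 bp downstream and the M6pr site 18716 bp outside the gene.

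In 8 of 9 replicates, sites were seen at Gga3, a sorting adaptor, at Gnptab, an enzyme that makes the mannose 6-phosphate tag, and at Ctso, cathepsin O. Gga3 and Gnptab each lacked 1 unstimulated replicate, and Ctso lacked LPS replicate 2. The Gnptab site lay inside its gene, the Gga3 site 12118 bp downstream and inside Nup85, and the Ctso site 19403 bp upstream. Their highest scores were 409.93, 337.71 and 332.22. Of the 9 sorting receptors and tagging enzymes, 4, 6 and 5 had a region in at least 2 replicates without stimulation, with LPS and with apoptotic cells, where the shares of all genes were 13.6%, 48.7% and 24.4%.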

How the data were processed

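FRA-1 ChIP-seq of peritoneal macrophages was analysed from 1 peak table per condition. The deposited tables give, for each genomic segment, a score per replicate (with a fixed mark where no peak was called), made by the authors. The submitters' processing notes name BWA 0.7.14, bedtools and mm10/GRCm38. The peak caller and the scale of the score are not given in the sources used here. Adjoining segments of a replicate with the same score were rejoined into peaks (tested on simulated data), and peaks overlapping between replicates were merged. Replicates are numbered by column, and each is taken as 1 sample, since the tables do not record which samples shared a mouse. Genes, strands and promoters came from RefSeq (GRCm38), with a window of 20 kb and, for comparison, genes within 50% of the length. Coordinates are 1-based. Single values were compared with exact permutation tests (Python 3.11.15, scipy 1.17.1). The genes and lists were chosen with earlier results of these data known. Full values are given for listed genes with a region in at least 2 replicates of 1 condition or with overlapping peaks in 2 conditions, and for the next 5 by score. Of the other lysosome genes, those with sites in at least 2 replicates of 2 or more conditions were named, at most 8, by number of replicates and then score, except for items not reported here. Windows of 0, 5 and 50 kb, score limits, equal numbers of peaks and left-out replicates were tried. Exons and sequences under peaks were not analysed here.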

Additional observations from a re-analysis of the deposited data

How the results depend on the processing

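With 3 replicates a condition and unknown depth, no single gene could pass a test. No paired analysis was possible because columns are not tied to mice. Of 144 alternatives to 18 results, 98 stayed within 1.5 times a count or 1 SD of a mean. Shares over all genes are given for the main setting only.

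The mean number of listed genes with a peak per replicate (18.0 unstimulated, 25.3 LPS, 26.7 apoptotic cells) was 12.0, 17.0 and 17.3 with the gene body only, 12.7, 19.3 and 22.0 with 5 kb, 26.7, 32.7 and 33.3 with 50 kb, and 12.0, 16.3 and 18.0 with peaks above the median score. With equal numbers of peaks it was 17.0 with LPS and 18.3 with apoptotic cells, and 24.0 with apoptotic cells at scores of at least 100. Genes with a region in at least 2 replicates numbered 14 and 19 at 50 kb (unstimulated, apoptotic cells), 11 in the gene body with LPS, 12 and 5 (LPS, apoptotic cells) both above the median score and with equal numbers of peaks, and 4 to 6, 7 to 21 and 7 to 10 with a replicate left out. Deposited names numbered 0, 1 and 0 in rows with at least 2 replicates, and 2 to 5, 7 to 9 and 3 to 6 with a replicate left out.

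The site counts were defined after the data were seen. Genes with a site in LPS but not unstimulated replicates (2 or 3 against 0, 12 genes) numbered 7 in the gene body, 27 at 50 kb, 4 above the median score or with equal numbers of peaks, and 0 to 18 with a replicate left out. With apoptotic cells (3) they numbered 6 at 50 kb, 0 above the median score or with equal numbers of peaks, and 0 to 5 with a replicate left out. In the opposite direction to LPS (0), 1 was found with equal numbers of peaks.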
